A study of Rattus norvegicus with 12 samples.

Results

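The genes described here are 10 markers of smooth muscle cells, pericytes and myofibroblasts in infarcted rat hearts. They are a fixed list of symbols, drawn up with earlier results of these data known, and were taken as the rows of the deposited count table named Acta2, Tagln, Myh11, Cnn1, Smtn, Mylk, Rgs5, Pdgfrb, Notch3 or Cspg4. Each name matched 1 row, so the markers are 10 of the 30560 genes listed, and all 10 are among the 18182 genes with at least 10 counts in total that were tested. Bulk RNA was sequenced from formalin-fixed, paraffin-embedded sections of the middle ventricular block of 12 male Wistar rats, with 1 library per rat. All were 7 weeks old at surgery. The 4 Sham rats (12, 17, 32 and 38) had a thoracotomy without a ligature and received vehicle, a carboxymethylcellulose solution. In the 4 MI rats (36, 57, 61 and 89) the left anterior descending coronary artery was ligated for good, which causes a myocardial infarction, and they too received vehicle. The 4 MI + UA rats (29, 58, 64 and 66) had the same ligation and received urolithin A (UA), a gut microbial metabolite studied as an inducer of mitophagy. Treatment was by daily oral gavage for 8 weeks in all groups, and the sources used here differ on the dose of UA and on the day it began.

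Arteries and arterioles are wrapped by smooth muscle cells and capillaries by pericytes, and together these are called mural cells. The contractile markers encode parts of the machinery by which smooth muscle shortens: smooth muscle actin (Acta2) and myosin (Myh11), the actin-binding proteins transgelin (Tagln), calponin 1 (Cnn1) and smoothelin (Smtn), and the kinase that switches smooth muscle myosin on (Mylk). The other 4 mark mural cells by their signalling or surface proteins: Rgs5, a brake on G protein signalling, the receptors Pdgfrb and Notch3, and the proteoglycan Cspg4 (NG2). After an infarct, fibroblasts of the scar can become myofibroblasts, which make smooth muscle actin and matrix, so several of these genes are not specific to vessels.

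Many of the contractile genes are controlled by serum response factor (SRF), which binds the CArG box, and by TEAD factors, which bind the MCAT element. The stretch before the start of Acta2 is shown because it holds matches to both and because Acta2 rose after infarction. It is on the minus strand of rat chromosome 1 in RefSeq's GRCr8 assembly, chr1:241172548-241172709, written 5′ to 3′ from 206 to 45 bases before the annotated start. The capitals mark, in order, an MCAT element and a pair of CArG-like boxes.
Acta2: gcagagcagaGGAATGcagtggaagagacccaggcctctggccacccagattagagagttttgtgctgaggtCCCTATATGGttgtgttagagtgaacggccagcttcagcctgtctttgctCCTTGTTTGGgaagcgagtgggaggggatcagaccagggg
RefSeq's promoter table held 7 of the 10 markers, with Tagln, Myh11 and Pdgfrb not among them. In the 250 bases before the start, 0 of the 7 held an exact CArG box. Acta2 held 2 boxes with 1 G or C in the A/T core, CCCTATATGG at -134 to -125 and CCTTGTTTGG at -84 to -75, counted back from the start. Of the 27457 promoters searched, 1.501% held an exact CArG box, 7.97% at least 1 with up to 1 G or C in the core, and 0.714% 2 or more. The MCAT element, CATTCC on either strand and overlapping neither box, was found in Acta2 at -196 to -191 and in Mylk at -36 to -31, against 11.8% of all promoters. These matches describe letters in a window and not bound sites.

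Reads on genes ranged from 6228706 to 19031695 per rat, and the 13 mitochondrially encoded genes took 50.2% to 58.6% of them. Levels are given as CPM, read counts relative to the library size after TMM scaling, which adjusts each library for its make-up. They are compared between rats and not between genes, whose lengths differ. Changes are log2 fold changes from edgeR's quasi-likelihood test with the 3 groups in one fit, with the standard error (SE) and a Benjamini-Hochberg p adjusted over all genes tested. In bulk RNA, fewer cells of a type and less RNA per cell cannot be told apart. Rat 66 is MI + UA by its label but stands among the vehicle-treated MI rats in an echocardiography table of the study, so values without it are given where it matters.

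MI hearts held more RNA of part of the contractile set and of 1 mural receptor than Sham hearts. Tagln rose 2.02-fold, Pdgfrb 1.72-fold, Acta2 1.48-fold and Cnn1 2.95-fold, while Smtn, Mylk, Myh11, Rgs5, Notch3 and Cspg4 did not pass the test. That is 4 of 10 markers with an adjusted p under 0.05, all higher, where 11.4% of all genes tested passed in either direction and 5.82% passed as higher. The groups did not overlap for 2 of the 10, Tagln and Pdgfrb, both higher, against 15.7% of all genes in either direction and 8.13% as higher. Between MI + UA and MI, 0 of 10 passed, as did 0% of all genes.

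**Figure D1:**
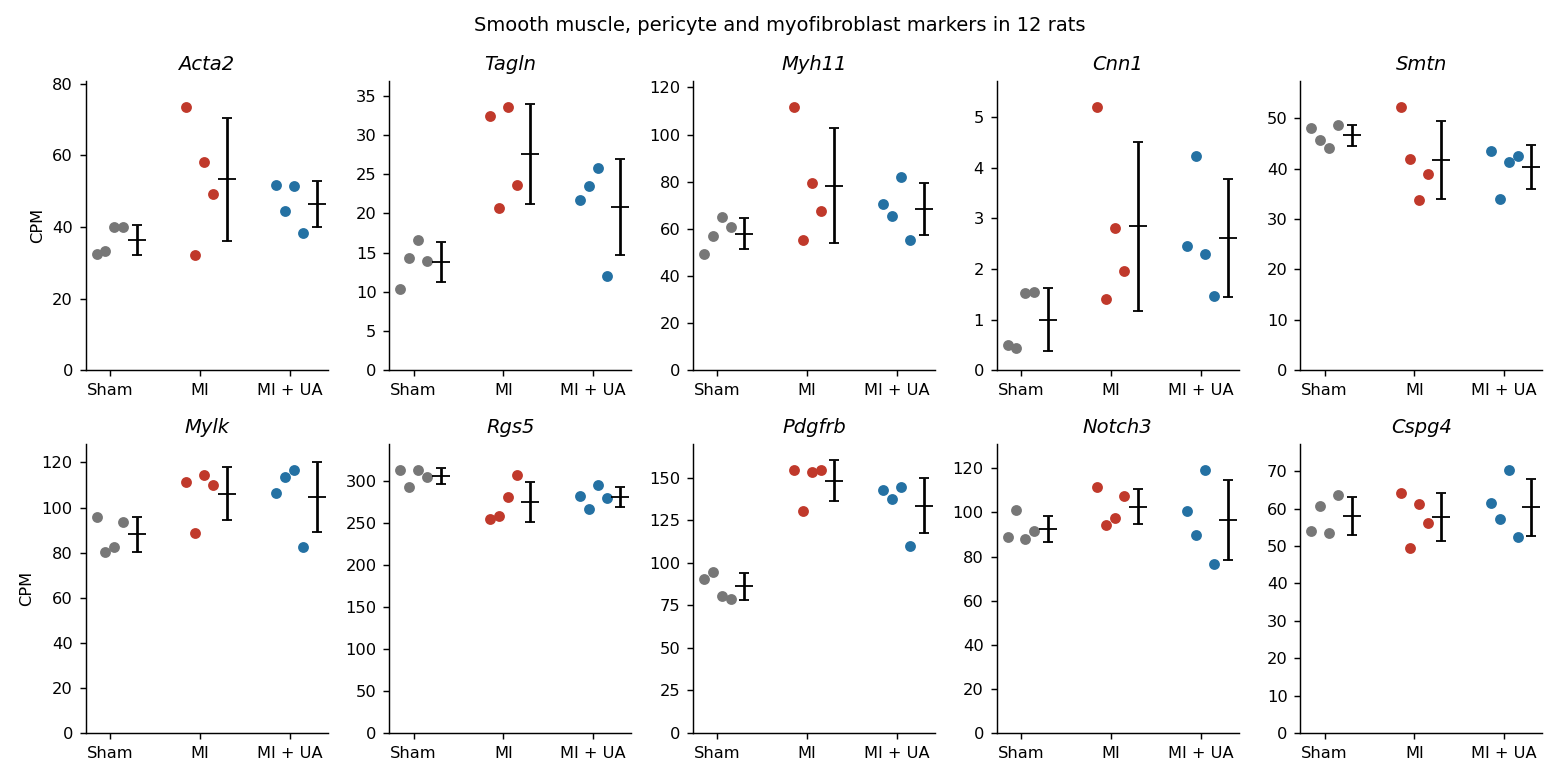
Level of each marker in CPM (vertical axes, from 0) in each rat, with Sham in grey, MI in red and MI + UA in blue, and the mean and SD (n = 4) beside each group. The MI rats lie above all Sham rats for Tagln and Pdgfrb, and 1 MI rat, rat 57, lies within or below the Sham range for Acta2, Myh11, Cnn1 and Mylk.

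Tagln (ENSRNOG00000017628), an actin-crosslinking protein of smooth muscle, stood at 10.4, 14.3, 16.7 and 13.9 CPM in Sham rats 12, 17, 32 and 38. In MI rats 36, 57, 61 and 89 it stood at 32.5, 20.7, 33.5 and 23.6 CPM. All 4 MI rats were above all 4 Sham rats, with rats 36 and 61 the highest. Its mean went from 13.8 ± 2.58 CPM to 27.6 ± 6.38 CPM (SD, n = 4 each), a log2 fold change of 1.02 (SE 0.21, edgeR adjusted p = 0.00235). It passed in each of the 12 fits that left out 1 rat, with log2 fold changes of 0.90 to 1.12.

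Acta2 (ENSRNOG00000058039), the usual stain for smooth muscle and for myofibroblasts, was measured at 32.5, 33.2, 40.1 and 39.9 CPM in Sham rats 12, 17, 32 and 38. The MI rats 36, 57, 61 and 89 had 73.4, 32.3, 58.2 and 49.1 CPM. Rat 57 was below every Sham rat, and the other 3 MI rats were above every Sham rat. The log2 fold change was 0.56 (SE 0.17, edgeR adjusted p = 0.0346), or 36.4 ± 4.14 against 53.3 ± 17.2 CPM (SD, n = 4 each). The call rested on single rats. Without MI rat 36 the log2 fold change was 0.37 (adjusted p = 0.150), without MI rat 61 it was 0.52 (adjusted p = 0.0918), and leaving out Sham rat 12, 17, 32 or 38 gave adjusted p-values of 0.101, 0.0972, 0.0551 and 0.0552. Without rat 57 it was 0.73 (adjusted p = 0.00117). The muscle actins have nearly the same coding sequence, so reads they share may have been left out or assigned to another actin, and the level of Acta2 is uncertain to that extent.

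Cnn1 (ENSRNOG00000027736), calponin 1, which binds actin in differentiated smooth muscle, was scarce, with 4, 3, 9 and 13 reads in Sham rats 12, 17, 32 and 38 and 71, 9, 27 and 24 reads in MI rats 36, 57, 61 and 89. Scaled, these were 0.502, 0.433, 1.51 and 1.55 CPM in Sham and 5.19, 1.41, 2.80 and 1.96 CPM in MI. Rat 57 fell between the Sham rats, so the groups overlapped. The log2 fold change was 1.56 (SE 0.47, edgeR adjusted p = 0.0340), with a 95% interval from 0.59 to 2.54. It no longer passed without MI rat 36 (1.07, adjusted p = 0.168), MI rat 61 (1.58, adjusted p = 0.0601), Sham rat 12 (1.33, adjusted p = 0.110) or Sham rat 17 (1.33, adjusted p = 0.107).

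Myh11, the myosin heavy chain by which smooth muscle is told from most other cells, had 49.3, 57.005, 65.0 and 60.6 CPM in Sham rats 12, 17, 32 and 38. In MI rats 36, 57, 61 and 89 it had 112, 55.2, 79.4 and 67.4 CPM. Rat 36 stood well above the others and rat 57 lay within the Sham range. The log2 fold change was 0.45 (SE 0.16, edgeR adjusted p = 0.0813), which did not pass. It did pass without rat 57, at 0.57 (adjusted p = 0.0147), and with no filter on low counts, at 0.45 (adjusted p = 0.0202), and it was 0.22 without rat 36 (adjusted p = 0.349).

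Mylk, the calcium-dependent myosin light chain kinase, had 80.2 to 96.0 CPM in the Sham rats and 111, 88.9, 114 and 110 CPM in MI rats 36, 57, 61 and 89. Rats 36, 61 and 89 were above every Sham rat and rat 57 was among them. Its log2 fold change was 0.27 (SE 0.11, edgeR adjusted p = 0.124), and without rat 57 it was 0.34 and passed (adjusted p = 0.0440). Smtn, a cytoskeletal protein of contractile smooth muscle, was the contractile marker with a negative value. It had 44.1 to 48.6 CPM in Sham and 52.2, 41.9, 33.8 and 38.9 CPM in MI rats 36, 57, 61 and 89, so the highest and the lowest of these 8 rats were both MI rats. Its log2 fold change was -0.16 (SE 0.11, edgeR adjusted p = 0.442).

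Of the 4 mural markers, Pdgfrb (ENSRNOG00000018461) rose. This receptor for platelet-derived growth factor holds pericytes on vessels and is also present on cardiac fibroblasts. Sham rats 12, 17, 32 and 38 had 90.8, 94.96, 80.3 and 78.8 CPM, and MI rats 36, 57, 61 and 89 had 154, 130, 154 and 155 CPM. The groups were far apart, and within MI the lone low rat was again rat 57. The mean was 86.2 ± 7.91 CPM in Sham and 148 ± 12.02 CPM in MI (SD, n = 4 each), a log2 fold change of 0.78 (SE 0.098, edgeR adjusted p = 2.51e-05). It passed in all 12 fits that left out 1 rat, with log2 fold changes between 0.74 and 0.84.

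The other 3 mural markers did not pass the test. Rgs5, one of the RNAs by which pericytes are most often recognised, had 313, 292, 313 and 304 CPM in Sham rats 12, 17, 32 and 38 and 255, 258, 281 and 306 CPM in MI rats 36, 57, 61 and 89. Rats 36, 57 and 61 were below all Sham rats and rat 89 was inside their range. The log2 fold change was -0.15 (SE 0.077, edgeR adjusted p = 0.239), with a 95% interval from -0.31 to 0.01. Notch3, the Notch receptor of mural cells, had 88.0 to 101 CPM in Sham and 94.4 to 112 CPM in MI, a log2 fold change of 0.15 (SE 0.11, edgeR adjusted p = 0.433). Cspg4 had 53.5 to 63.8 CPM in Sham and 49.4 to 64.3 CPM in MI, a log2 fold change of -0.0026 (95% interval -0.22 to 0.21). The Sham values of Cspg4 lay within the MI range.

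**Figure D2:**
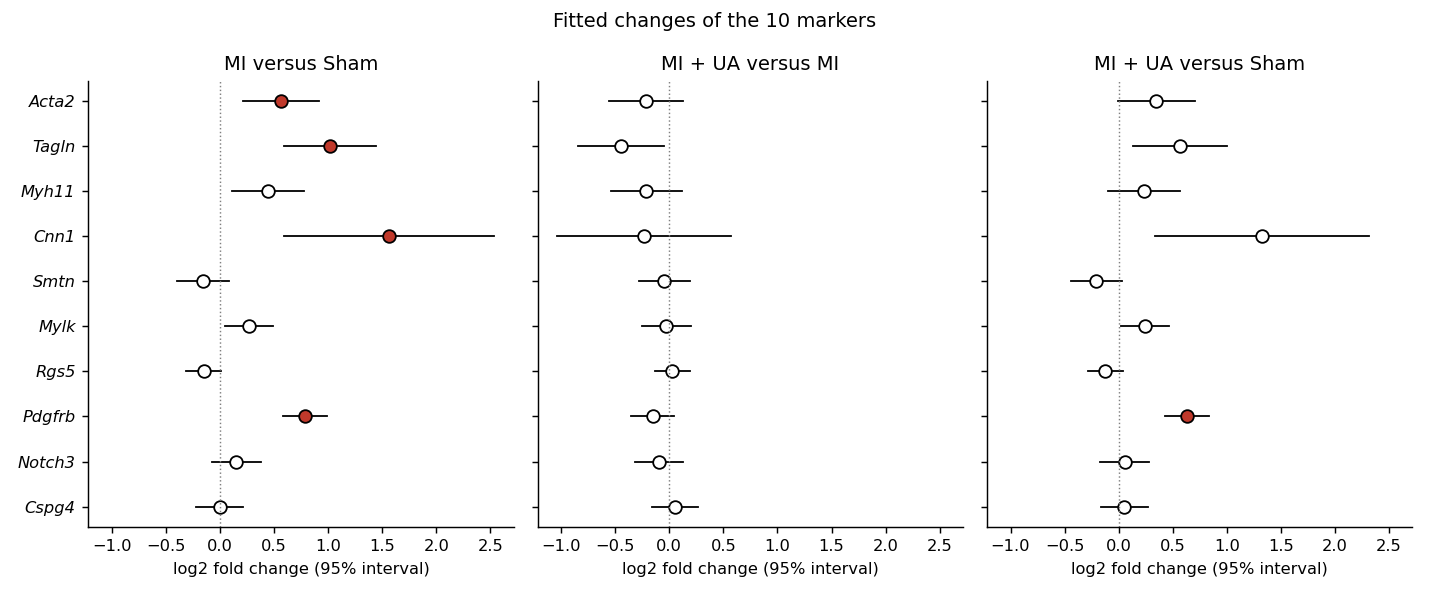
Fitted log2 fold change (horizontal axes) of the 10 markers in the 3 comparisons, with lines for the 95% interval and filled points where the edgeR adjusted p is under 0.05. In MI versus Sham 4 points are filled, in MI + UA versus MI none, and in MI + UA versus Sham 1, Pdgfrb.

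The question of the UA groups was whether treatment moved these genes in infarcted hearts. Comparing MI + UA with MI, 0 of the 10 markers had an adjusted p under 0.05, and 0% of all genes did, by edgeR or by DESeq2. An unadjusted p under 0.05 was reached by 1 marker, Tagln, and by 3.79% of all genes tested. The groups overlapped for all 10, and 2.34% of all genes were without overlap. Tagln had 21.8, 23.5, 25.8 and 11.98 CPM in MI + UA rats 29, 58, 64 and 66. Rats 29, 58 and 64 lay inside the range of the MI rats and rat 66 lay below it, within the Sham range. The log2 fold change was -0.45 (SE 0.19, unadjusted p = 0.0303, edgeR adjusted p = 0.9998), and without rat 66 it was -0.24.

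For the other contractile markers the fitted values were also below 0, and every 95% interval held 0. Acta2 had 51.8, 44.4, 51.3 and 38.4 CPM in MI + UA rats 29, 58, 64 and 66, a log2 fold change of -0.21 from MI (95% interval -0.56 to 0.13). For Myh11 the levels were 70.4, 65.4, 82.0 and 55.3 CPM in the same order, a log2 fold change of -0.21 (95% interval -0.54 to 0.11). All of these values lay between the lowest and the highest MI rat. Cnn1 had 2.46, 4.24, 2.30 and 1.46 CPM, a log2 fold change of -0.24 (95% interval -1.04 to 0.57). Its interval was the widest of the 10 markers in this comparison. Smtn and Mylk differed by -0.05 (95% interval -0.28 to 0.19) and -0.03 (95% interval -0.25 to 0.20). The direction depended on 1 rat in several cases, since without MI rat 36 Myh11 stood at 0.01, Cnn1 at 0.26 and Smtn at 0.09, with Acta2 at -0.02. Without rat 66, Acta2 stood at -0.13, Myh11 at -0.12, Cnn1 at -0.0051 and Mylk at 0.08.

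Pdgfrb had 143, 138, 145 and 110 CPM in MI + UA rats 29, 58, 64 and 66, with rat 66 below every MI rat. Its log2 fold change from MI was -0.15 (SE 0.096, 95% interval -0.35 to 0.05), and without rat 66 it was -0.07. Rgs5 differed by 0.03 (95% interval -0.13 to 0.19), Notch3 by -0.09 (95% interval -0.32 to 0.13) and Cspg4 by 0.05 (95% interval -0.16 to 0.27). Without rat 66, Notch3 differed by 0.0038 and Cspg4 by 0.12. Counted over the markers, 8 of 10 were below 0, and 51% of all genes tested were above 0. The MI rats enter this comparison and MI versus Sham, so a low or high MI rat shifts both, and no count of opposite directions is given.

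Against Sham, the MI + UA rats had 1 marker past the threshold, Pdgfrb, where 9.44% of all genes passed and 5.16% passed as higher. Its log2 fold change was 0.63 (SE 0.098, edgeR adjusted p = 0.000316), and all 4 MI + UA rats were above all 4 Sham rats, 110 CPM being the lowest of the first and 94.96 CPM the highest of the second. Tagln was at 0.57 (adjusted p = 0.0960), Cnn1 at 1.33 (adjusted p = 0.0884), Mylk at 0.24 (adjusted p = 0.184) and Acta2 at 0.35 (adjusted p = 0.236) in the same edgeR test. None of these 4 passed. Without rat 66, Tagln (0.78, adjusted p = 0.00413), Cnn1 (1.56, adjusted p = 0.0393) and Mylk (0.35, adjusted p = 0.0249) passed, which made 4 markers. Besides Pdgfrb, the groups did not overlap for Smtn, which makes 2 of 10 against 14.3% of all genes. Smtn was below Sham in all 4 MI + UA rats, at 33.9 to 43.5 CPM, with a log2 fold change of -0.21 that did not pass (edgeR adjusted p = 0.311). The Sham rats of this comparison are those of MI versus Sham.

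Within the infarcted groups, the same rats were often the lowest or the highest. Rat 57 was the lowest MI rat for 8 of the 10 markers and rat 66 the lowest MI + UA rat for 8 of 10. Rat 36 was the highest MI rat for 6 of 10 and rat 64 the highest MI + UA rat for 7 of 10. The 4 MI rats spanned 2.27-fold for Acta2 and 2.02-fold for Myh11, where the Sham rats spanned 1.23-fold and 1.32-fold. Rgs5 spanned 1.20-fold in MI and 1.07-fold in Sham. The markers share libraries and scaling, so these counts are not independent. How often the same rats were lowest or highest over all genes, and how far all genes spanned, was not counted.

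**Figure D3:**
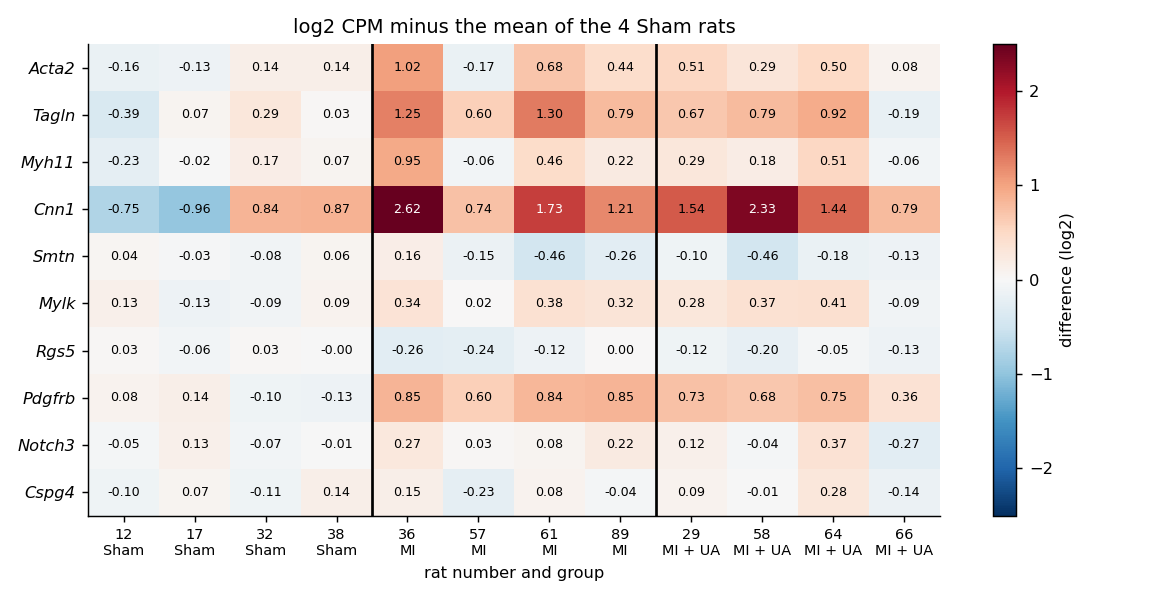
Each cell gives the log2 CPM of a marker (vertical) in a rat (horizontal, by group) minus the mean of the 4 Sham rats, red for higher and blue for lower. MI rat 57 and MI + UA rat 66 carry values near Sham for Acta2 and Myh11, at -0.17 and -0.06 in rat 57 and 0.08 and -0.06 in rat 66, and Pdgfrb is above 0 in all 8 infarcted rats.

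Mitochondrial genes took 57.6% of the reads of rat 57 and 56.8% of those of rat 66, the highest share in each of their groups, and 58.6% in Sham rat 12. The summed level of 8 fibroblast markers was the lowest of its group in both rats, 2463 CPM in rat 57 where MI reached 3837 CPM, and 2532 CPM in rat 66 where MI + UA reached 3726 CPM. Cardiomyocyte markers (7 genes) summed to 7996 CPM in rat 57, within the MI range of 7860 to 8092 CPM. In rat 66 they summed to 10170 CPM, the highest of MI + UA, and 8 macrophage markers to 206 CPM, the lowest. The macrophage sum of rat 57, 266 CPM, was not the lowest of MI, where rat 36 had 246 CPM. Endothelial markers (7 genes) summed to 516 CPM in rat 57, the lowest of MI, and to 563 CPM in rat 66, within the MI + UA range of 507 to 591 CPM. Schwann cell markers (6 genes) summed to 26.5 CPM in rat 57 and 28.8 CPM in rat 66, the lowest of each group. What part these differences have in the low marker values was not tested.

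As deviations from the group means over the 12 rats, which share their libraries and scaling, Acta2 and Myh11 moved together with a Pearson r of 0.93. That placed Myh11 at rank 3 of 10898 genes by likeness to Acta2, after Mmp15 (0.94) and Sox4 (0.94) and before Prkcd (0.91) and Rrp36 (0.90). Acta2 was less like Cspg4 (0.76), Cnn1 (0.74), Tagln (0.73) and Mylk (0.63), at ranks 103, 126, 158 and 425. Its values were 0.49 with Notch3, 0.47 with Pdgfrb, 0.23 with the contractile marker Smtn and 0.10, the lowest, with Rgs5. Among mural markers the values were 0.80 for Notch3 with Cspg4 and 0.76 for Notch3 with Pdgfrb, and between -0.29 and 0.30 for Rgs5 with each of the other 9. The 5 genes most like Rgs5 were Taf4 (0.90), Tnfsf12 (0.88), Slc2a10 (0.86), F2r (0.86) and Rpl10a (0.86), and no marker was among them. These values are descriptions and carry no test.

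Ratios of counts within a library do not depend on the scaling between libraries, and they compare a pair of markers in the same rat. The log2 ratio of Pdgfrb to Rgs5 was -1.78, -1.62, -1.96 and -1.95 in Sham rats 12, 17, 32 and 38 and -0.72, -0.99, -0.87 and -0.99 in MI rats 36, 57, 61 and 89. Every MI rat, rat 57 included, was above every Sham rat. The difference was 0.94 (16 of 16 pairs of rats higher in MI, two-sided exact permutation test p = 0.0286, adjusted p = 0.0762 over 8 ratio tests). An unadjusted p of 0.0286 is the smallest that 4 rats against 4 allow, and 0 of the 8 ratio tests had an adjusted p under 0.05. The levels of Pdgfrb and Tagln already did not overlap between MI and Sham in these rats. The separation of the ratios with either on top is therefore not independent of that result. How many pairs of genes in general reach 16 of 16 was not counted.

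Tagln relative to Myh11 was also higher in MI in 16 of 16 pairs, by 0.59 (exact permutation p = 0.0286, adjusted p = 0.0762), from -2.08 ± 0.13 to -1.49 ± 0.22 (SD, n = 4 each). Notch3 relative to Rgs5 was higher by 0.30 in 16 of 16 pairs with the same p-values, although its highest Sham and lowest MI ratios met at -1.53. Acta2 relative to Myh11 differed by 0.10 (11 of 16 pairs, exact permutation p = 0.314, adjusted p = 0.419). With UA, compared with MI, the same ratios differed by -0.19 for Pdgfrb to Rgs5 (p = 0.171), -0.27 for Tagln to Myh11 (p = 0.257), -0.14 for Notch3 to Rgs5 (p = 0.371) and 0.02 for Acta2 to Myh11 (p = 0.857), all by exact permutation. Without rat 66 the first 3 were -0.10, -0.12 and -0.03, given with no test. Rat 66 had the lowest ratio of Tagln to Myh11 among the MI + UA rats, -2.21, inside the Sham range.

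**Figure D4:**
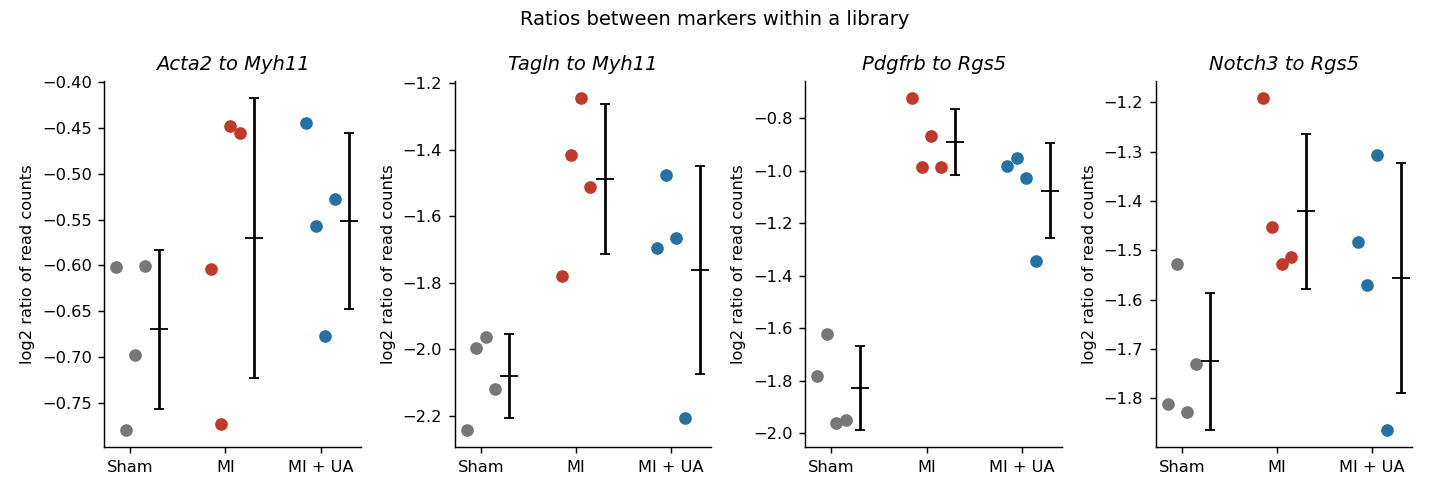
Log2 ratio of the read counts of a pair of markers (vertical axes, which do not start at 0) in each rat by group, with the mean and SD (n = 4). For Pdgfrb to Rgs5 and Tagln to Myh11 all MI rats lie above all Sham rats, and for Acta2 to Myh11 the groups overlap.

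Genes that act with these markers were counted by list, beside the median log2 fold change of 0.03 over all genes in MI versus Sham and the 11.4% of all genes that passed (5.82% as higher). Of 16 other smooth muscle contractile genes tested, 4 rose, 0 fell and 12 did not pass, with a median of 0.63. Those that rose were Itga8, an integrin of smooth muscle and fibroblasts (1.49, edgeR adjusted p = 0.000203), the thin filament proteins Tpm2 (0.66) and Cald1 (0.60), and Filip1l (0.36). The abundant smooth muscle light chain Myl9 was at 0.39 (adjusted p = 0.0905) and the enteric actin Actg2 at 1.35 (adjusted p = 0.0635). Neither passed.

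Of 17 other pericyte genes, 2 rose, 1 fell and 14 did not pass, against 11.4% of all genes passing, with a median of -0.13. Tbx18, a transcription factor of mural and epicardial lineage, rose by 0.80 (edgeR adjusted p = 0.00042), and the adhesion molecule Mcam by 0.48. Angpt1, the vessel-stabilising ligand that pericytes secrete, fell by 0.47 on the log2 scale (adjusted p = 0.0101). The potassium channel subunits of pericytes, Kcnj8 and Abcc9, had -0.22 and -0.14, which did not pass, as with Rgs5. Compared with Sham, the MI + UA rats again had higher Tbx18 (0.59) and Mcam (0.49), and their Kcnj8 was lower (-0.40, edgeR adjusted p = 0.0254). There 2 of the 17 rose, 1 fell and 14 did not pass, where 9.44% of all genes passed. Angpt1 did not pass as lower in that comparison.

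Of 8 tested genes of SRF and of factors that act with or against it, 2 rose and 0 fell. Those that rose were Hopx (0.63, edgeR adjusted p = 0.0119) and Klf4 (0.38, adjusted p = 0.0419), neither a coactivator of SRF. Srf itself was at 0.02 (SE 0.11), and its smooth and cardiac muscle coactivator Myocd at -0.14 (SE 0.092). Among 13 genes of myosin light chain phosphorylation, 0 rose and 1 fell, Mylk3, the cardiac relative of Mylk (-0.56, adjusted p = 0.00209), where 11.4% of all genes passed. Of 18 genes of Notch and PDGF receptor signalling, 4 rose and 0 fell. They were Pdgfd, a ligand of Pdgfrb (0.81, adjusted p = 0.0172), Notch2 (0.72, adjusted p = 0.000285), the fibroblast receptor Pdgfra (0.49) and Heyl, a Notch target of mural cells (0.43, adjusted p = 0.0471). Pdgfb, the endothelial ligand of Pdgfrb, had -0.18 (adjusted p = 0.418).

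In the nonmuscle actin, calponin and transgelin list, 12 of 20 genes rose and 0 fell, among them Actn1 (0.83), Vim (0.79), Cnn2 (0.66) and Flna (0.64). Among relatives of the markers, Actb rose (0.54, edgeR adjusted p = 0.00302), whereas Cnn3 (0.36, adjusted p = 0.0505), Actg1 (0.25), Tagln2 (0.21) and the near-absent Tagln3 did not pass. The cardiac actin Actc1 was at -0.23 (adjusted p = 0.167) and the skeletal actin Acta1 at 0.58 (adjusted p = 0.213). Of 17 matrix and activation genes of myofibroblasts, 14 rose and 0 fell, with a median of 1.56, led by Postn (2.65), Col8a1 (2.48), Cilp (2.10) and Fn1 (2.09). Between MI + UA and MI, 0 genes passed in each of these lists, 0% of all genes being called.

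**Figure D5:**
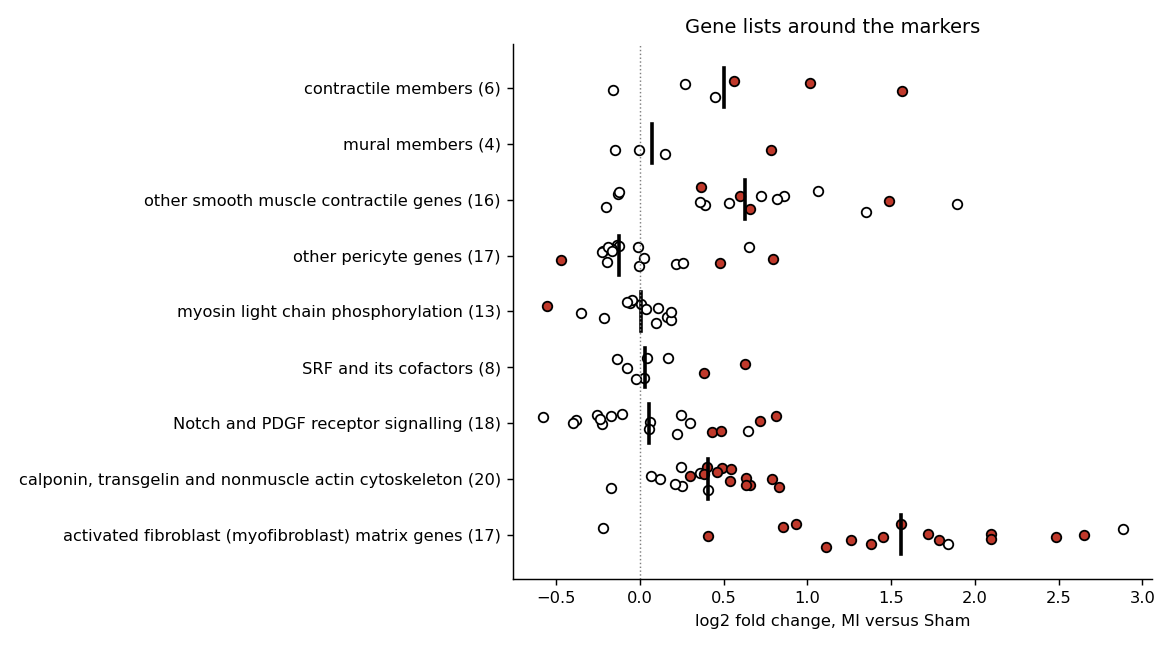
Log2 fold change in MI versus Sham (horizontal axis) of the genes of each list (vertical, number tested in brackets), filled where the edgeR adjusted p is under 0.05, with a bar at the list's median. The medians are 0.50 for the contractile markers, 0.07 for the mural markers, 0.63 for other smooth muscle genes, -0.13 for other pericyte genes and 1.56 for myofibroblast matrix genes.

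Markers of other cells moved between the same groups. Of 8 fibroblast markers, 3 of which (Pdgfra, Col1a1 and Col3a1) also stand in the lists above, 5 rose in MI versus Sham, of 8 macrophage markers 7 rose, of 7 cardiomyocyte markers 7 fell, and of 7 endothelial markers 1 fell, where 11.4% of all genes passed. Their summed levels did not overlap between MI and Sham for these 4 cell types, and a sum is weighted to its most abundant genes. Gene by gene, this held for 5 of 8 fibroblast, 7 of 8 macrophage, 5 of 7 cardiomyocyte and 1 of 7 endothelial markers. Of all genes, 15.7% did not overlap. Fibroblast markers ranged from 1496 to 1908 CPM in Sham and from 2463 to 3837 CPM in MI, macrophage markers from 121 to 152 and from 246 to 397 CPM, cardiomyocyte markers from 11486 to 14149 and from 7860 to 8092 CPM, and endothelial markers from 631 to 709 and from 516 to 612 CPM. Schwann cell markers, of which 1 of 6 rose, ranged from 21.3 to 27.2 CPM in Sham and from 26.5 to 43.1 CPM in MI. In MI + UA versus Sham, 5 of 8 fibroblast, 7 of 8 macrophage and 4 of 6 Schwann cell markers rose, and 7 of 7 cardiomyocyte markers and 1 of 7 endothelial markers fell, where 9.44% of all genes passed. The MI + UA sums ranged from 2532 to 3726 CPM for fibroblast, 206 to 424 CPM for macrophage, 8014 to 10170 CPM for cardiomyocyte, 507 to 591 CPM for endothelial and 28.8 to 101 CPM for Schwann cell markers. The upper end of the last was rat 58 alone, with 41.4, 34.5 and 28.8 CPM in rats 29, 64 and 66. No marker of these lists was at 0 in any rat. The part of these shifts in the changes of Tagln, Acta2, Cnn1 and Pdgfrb, in either comparison with Sham, was not tested.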

How the data were processed

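Per the labels and the methods of the study, the authors mapped paired reads of strand-specific libraries with STAR 2.6.1c to mRatBN7.2 and deposited whole-number read counts per Ensembl gene from htseq-count, without normalization. The labels' protocol states depletion of ribosomal RNA, whereas their molecule field reads polyA RNA. The strand setting of the counting is not given in the sources used here, so reads of antisense or overlapping genes cannot be told apart. The 5 summary lines of that tool, 51.7% to 57.1% of counted reads, were left out. A further MI + UA library, excluded by the authors, is not analysed here. Groups came from the sample titles, with 4 rats each.

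A gene needed 10 or more counts summed over the rats to be tested, which was done with edgeR 4.0.16 (quasi-likelihood, TMM, 3 groups in one fit, Benjamini-Hochberg over all genes) in R 4.3.3, and the SE was the log2 fold change divided by the square root of F. CPM and log2 CPM (prior count 1) used TMM library sizes. The intervals come from the spread between rats in the fit. The labels give separate rats. Count ratios were compared by exact permutation. The markers and lists were chosen with earlier results of these data known. All 10 markers are named, with up to 4 called genes of each list with the largest change, the relatives of the actin, calponin, transgelin and kinase markers, and the 5 genes most like Acta2 and Rgs5 within groups. Kcnj8, Abcc9, Myl9, Srf, Myocd and Pdgfb were named beyond that rule after their values were seen. The genes Ramp1, Aoc3, Higd1b, Mylk2, Mylk4, Prkg1, Foxo4, Pln and Cldn5 of the lists were not analysed here. Actg1 was listed in 2 rows, of which 1 was tested. Alternatives were DESeq2 1.42.0, a fit of 2 groups, other filters and scalings, and leaving out each rat. Simulated counts for MI versus Sham (17845 genes) had 68 genes changed by 0.5, 66 by 1 and 66 by 2 on the log2 scale. All came from genes above a floor on the mean count. The test recovered 32.4%, 77.3% and 98.5% of them. In the data 2064 genes were called in this comparison, so the adjustment differs and these rates do not give the power there.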

Additional observations from a re-analysis of the deposited data

Results flagged for a closer look

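In 42 groups of 4 rats, made of the 10 markers and 4 ratios in 3 groups, the gap of the highest or lowest rat to its neighbour was compared on the log2 scale with the whole range of the group. It exceeded the 95% critical value of Dixon's test in 2 of them, and chance does so in about 1 of 20 groups. The 2 found are about as many as chance would give, and the groups share rats and libraries. Both were MI rat 57 as the lowest. For Mylk, at 88.9 CPM where the other MI rats had 110 to 114 CPM, the gap took 0.844 of the range. For Pdgfrb, at 130 CPM against 154 to 155 CPM, it took 0.966. Pdgfrb in rat 57 was still above all Sham rats, and Mylk was not.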

How the results depend on the processing

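No paired analysis was possible because each rat belongs to a single group. In MI versus Sham, 4 markers passed with all rats, 4 or 5 under the other tests, filters and scalings, and 2 to 6 when 1 rat was left out. The count was 2 without Sham rat 12, Sham rat 17, MI rat 36 or MI rat 61, where Tagln and Pdgfrb passed, and 6 without MI rat 57. In MI + UA versus MI it was 0 in every fit. In MI + UA versus Sham it was 1, and it became 2 with DESeq2 (Cnn1 and Pdgfrb), 3 with no filter on low counts (Cnn1, Pdgfrb and Tagln) and, over the fits without 1 rat, 1 to 4, the highest without rat 66. The cause was not tested.

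Some signs turned. Cspg4 in MI versus Sham went to 0.00073 with filterByExpr and ranged from -0.0583 to 0.0609 without 1 rat. In MI + UA versus MI, leaving out 1 rat gave ranges of -0.342 to 0.01000 for Myh11, -0.531 to 0.263 for Cnn1, -0.136 to 0.0859 for Smtn, -0.0992 to 0.0755 for Mylk, -0.0071 to 0.0847 for Rgs5, -0.208 to 0.0038 for Notch3 and -0.0230 to 0.119 for Cspg4. Without 1 rat in turn, MI + UA versus Sham gave ranges of -0.0566 to 0.156 for Notch3 and -0.0259 to 0.116 for Cspg4. The ratio of Acta2 to Myh11 in MI + UA versus MI ranged from -0.0491 to 0.0604 without 1 rat, below 0 without MI rat 57 or MI + UA rat 29. In MI versus Sham, 40 calls in the 7 other lists became 44 with DESeq2. Over all genes, MI + UA versus MI had 3 calls with no filter and 1 without MI rat 36, none of them a marker. Cnn1 had 3 to 71 reads a rat.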
